A study of Mus musculus with 123 samples.

Results

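The genes described here are 10 genes of the extracellular matrix that were listed by name, Hapln1, Vcan, Has2, Col2a1, Fn1, Thbs4, Sparc, Col4a1, Col4a2 and Lama4, out of 23337 genes in the count table. All 10 were in the table. They were followed in single heart cells of αMHC-GFP mice, in which the promoter of the alpha myosin heavy chain gene, active in heart muscle cells, drives green fluorescent protein (GFP). GFP+ cells were sorted from embryonic hearts of stages E9.5 and E12.5 (E, embryonic day) and from hearts on postnatal day 1 (P1), captured singly on Fluidigm C1 chips and sequenced, so that gene expression could be followed from the early heart to birth. All cells carry the same transgene and none was treated. Of 123 cells, 112 had 2000 or more genes with a count and were kept. Values for several time points are given in the order E9.5, E12.5, P1, and these held 42, 29 and 41 kept cells.

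The matrix of the early heart is the cardiac jelly, a hyaluronan-rich layer between myocardium and endocardium in which the valve cushions form and the trabeculae grow. Has2 makes the hyaluronan, versican (Vcan) binds it, and the link protein Hapln1 holds that binding in place. Fibronectin (Fn1) and fibrillar collagens such as type II collagen (Col2a1) give cells something to adhere to, thrombospondin 4 (Thbs4) and Sparc are secreted glycoproteins that act on matrix assembly, and type IV collagen (Col4a1 and Col4a2) with the laminin alpha chain Lama4 belongs to the basement membrane that comes to surround each muscle cell.

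The sequence before the start of Vcan and Thbs4 is shown because these genes were found in most E9.5 cells and in few P1 cells. Both stretches are the 100 bases before the RefSeq start (GRCm38.p6), 5′ to 3′ on the strand of the gene, and capitals mark the GC box, GGGCGG or its reverse complement.
Vcan, chr13:89742513-89742612, minus strand: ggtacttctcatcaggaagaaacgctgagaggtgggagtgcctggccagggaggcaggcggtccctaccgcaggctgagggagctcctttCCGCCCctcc
Thbs4, chr13:92794819-92794918, minus strand: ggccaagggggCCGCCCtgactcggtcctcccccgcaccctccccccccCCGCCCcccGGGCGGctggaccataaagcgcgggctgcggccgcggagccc
Col4a1 and Col4a2 are shown at their shared start because they lie head to head and overlap there by 22 bases, so reads from this stretch cannot be told apart by a kit that does not mark strand. The overlap of the annotated genes (GENCODE M21, GRCm38) is chr8:11312805-11312826, given on the plus strand with the GC box in capitals.
Col4a1 and Col4a2 overlap: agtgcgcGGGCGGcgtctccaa

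RefSeq windows were at hand for 6 of the 10 genes (Hapln1, Vcan, Thbs4, Sparc, Col4a1 and Col4a2). In the 250 bases before the start, searched on both strands, the GC box was found 2 times at Vcan, 3 times at Thbs4 and 2 times at Col4a2, and 32.7% of all 32851 windows held it. The CCAAT box was found 1 time each at Vcan, Col4a1 and Col4a2 (33.8% of all windows), the TEAD letters CATTCC 2 times at Thbs4 (12.6%) and the SOX letters ACAAT 1 time at Hapln1 (27.7%). None of the 6 windows held TATAAA (12.4% of all windows), AGATAA (9.99%) or CACGTG (6.02%). Vcan and Hapln1 are also neighbours on chromosome 13, where Hapln1 (89539796 to 89611652) ends 43.7 kb before Vcan (89655312 to 89742509).

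No animal, litter or chip is named for any cell, so a time point counts as 1 sample, cells are not replicates, and no test could be run. By the prefix of their titles the E9.5 cells form set C (14 cells) and set N530 (28 cells). The E12.5 cells form set C (20 cells), set N523 (8 cells) and a set E12-5b of 1 cell, and every P1 title has the prefix of set C. Sets N530 and N523 were sequenced more deeply, with medians of 3151950 and 4895290 counts per cell, against 415428, 389394 and 149078 for set C at the 3 time points. One count thus stood for 6.71 CPM (counts per 1000000 counts of the cell) in the median P1 cell but for 0.317 CPM in set N530. Set N530 held 94.5% of the E9.5 counts, and CPM were therefore computed per cell and averaged over cells. No pair of cells held identical counts.

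The cells were checked for heart muscle genes. In 108 cells the summed level of Ttn, Actc1, Myh6 and Tnnt2 was 1000 CPM or more, with medians of 46759, 29113 and 69601 CPM. In 4 cells, 3 from E9.5 and 1 from P1, it was under that limit. The highest of these 4 was at 258 CPM. The lowest of the others, an E9.5 cell of set N530, was at 1564 CPM, far under the E9.5 median, and the next was at 4977 CPM. One of the 3 E9.5 cells held endothelial and endocardial markers summing to 2357 CPM, among them Tek at 1127 CPM, Pecam1 at 631 CPM and Nfatc1 at 348 CPM, named after their values were seen. Another had Rgs5, of the mural list, at 1694 CPM with the 7 other genes of that list at 0, and fibroblast markers summing to 435 CPM. In the last of them fibroblast markers summed to 561 CPM, of which Ddr2 was 416 CPM, and epicardial markers to 476 CPM. A separate list of 12 cardiomyocyte markers summed to 837 CPM in the Rgs5 cell and 853 CPM in the last cell. It summed to 169 CPM in the E9.5 cell with endothelial markers, and its median in the 39 other E9.5 cells was 32674 CPM. The P1 cell held endothelial markers summing to 9875 CPM, 62.4% of it Emcn. These 4 cells passed the GFP gate with low levels of the muscle genes, and values with and without them are given below for the genes they move most.

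Among the 108 other cells, 7 of the 12 endothelial markers had a count at E9.5, with a summed level of 0 to 1570 CPM per cell and Pecam1, Cdh5, Tie1, Emcn and Plvap at 0. At E12.5 and P1 4 of the 12 had a count in each, and the highest cells were at 40.7 and 24 CPM. Of the 12 fibroblast and mesenchyme markers, 9 had a count at E9.5, where 1 cell reached 4007 CPM, 5 at E12.5 with at most 684 CPM, and 2 at P1 with at most 120 CPM, with Pdgfra and Tcf21 at 0 at P1. Of the 8 epicardial markers 4, 3 and 1 had a count, with at most 2696, 595 and 372 CPM, and of the 8 smooth muscle and mural markers 6, 5 and 3 did, mostly Abcc9, which heart muscle cells also express. The lists for erythroid cells, macrophages, heart field progenitors, neural cells and endoderm or epithelium had counts of at most 3 of their genes at any time point. The summed endoderm and epithelial level, all Krt8 and Krt18, had means of 196, 29.3 and 0.928 CPM with a highest cell of 1071 CPM, and the progenitor level had means of 92.8, 8.35 and 0 CPM with a highest cell of 885 CPM, so that both were lower at the later time points, as were matrix genes. The erythroid and neural lists reached 258 and 292 CPM in the highest E9.5 cell, and the macrophage list 636 CPM in a P1 cell, all of it Cd68. The part of these cells in the matrix values was not tested.

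Fewer of the matrix genes were found per cell at the later time points. Of the 10 genes, the median cell had 7, 5 and 3, with ranges of 4 to 9, 1 to 8 and 0 to 6. When every cell was thinned to 100000 counts, which left out 3 P1 cells, the medians were 6, 4 and 3. Over all genes of the count table the median cell, not thinned, also had fewer at the later time points, with 4502.5, 4189 and 2889. The summed level of the 10 genes had medians of 2895, 1177 and 437 CPM per cell. At E9.5 39.8% of that sum was Vcan, at E12.5 56.4% was Sparc, and at P1 54.9% was Col4a1, Col4a2 and Lama4 together. Without the 4 cells under the limit these shares were 41.95%, 56.4% and 51.4%.

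**Figure D1:**
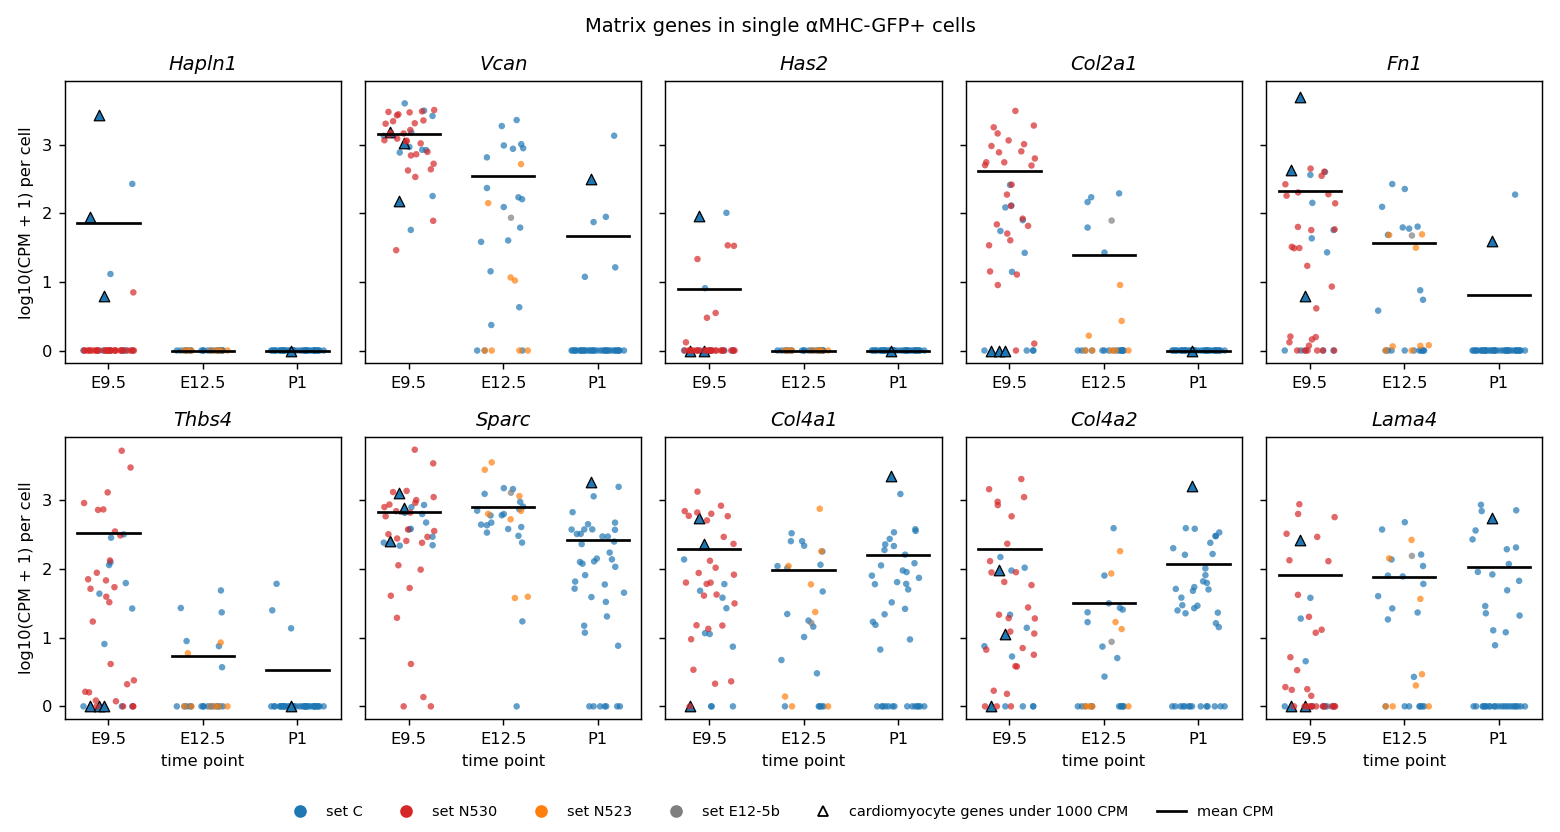
Level of each gene in each of the 112 cells, as log10(CPM + 1), by time point, with colour for the naming set, triangles for the 4 cells under 1000 CPM of the cardiomyocyte genes and a bar for the mean CPM. Every E9.5 cell has Vcan, no P1 cell has Col2a1, and the highest Hapln1 and Fn1 points are 1 triangle at E9.5.

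Versican was the most widespread of the 10 genes at E9.5. It was found in 42 of 42 E9.5 cells (100%, exact 95% binomial interval 91.6 to 100), at 28.0 CPM in the lowest, 1189 CPM in the median and 3987 CPM in the highest cell. At E12.5 it was found in 22 of 29 cells, with 0 CPM in the lowest, 60.7 CPM in the median and 2279 CPM in the highest. At P1 6 of 41 cells had it, the median was 0 and the highest cell was at 1347 CPM. The groups overlapped in their ranges, but 39 of 42 E9.5 cells were over 100 CPM, against 13 of 29 at E12.5 and 2 of 41 at P1.

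The mean of Vcan was 1445, 349 and 45 CPM, 4.14-fold lower at E12.5 than at E9.5 and 7.76-fold lower at P1 than at E12.5. At P1 a single cell held 73% of the summed Vcan, and without the highest cell of each time point the log2 ratio of P1 to E12.5 went from -2.96 to -4.49. At E12.5 the sets differed, with 17 of 20 cells and a mean of 468 CPM for set C, and 4 of 8 cells and 84.8 CPM for set N523. At E9.5 their means were within 2-fold, at 1351 CPM for set C and 1492 CPM for set N530. The P1 to E12.5 log2 ratio was -3.38 against set C but -0.91 against set N523, which is under 2-fold. The E12.5 to E9.5 log2 ratio was -1.53 within set C and -4.14 between the deep sets.

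Has2, the enzyme that makes hyaluronan, was found in 9 of 42 E9.5 cells, with a median of 0, a highest cell of 100.4 CPM and a mean of 6.88 CPM. Thinned to 100000 counts, 5 of 42 E9.5 cells had it. No count was found in 29 E12.5 cells or in 41 P1 cells, which by the floor of 3 allows a share of cells with a count of up to 10.3% and 7.32%. This does not limit the share of cells that express it, since 1 count in the median P1 cell is more than the level in 3 of the 9 E9.5 cells. Against the floor of 3 counts over the pooled cells, Has2 was at least 84.0-fold lower at E12.5 and at least 11.3-fold lower at P1 than at E9.5. In cells at 1000 CPM or more the E12.5 bound was 79.8-fold, but 20.5-fold within set C and 64.2-fold between the deep sets. The bound within set C rests on the cell at 100.4 CPM, since 2 counts remained without it, under the floor. Most cells of every time point thus had no count of the synthase.

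Hapln1, the link protein, was found in 6 of 42 E9.5 cells and in no E12.5 or P1 cell. Its mean at E9.5 was 72.3 CPM, its median 0 and its highest cell 2658 CPM, and that 1 cell held 87.6% of the sum. That cell was the E9.5 cell with endothelial and endocardial markers and 75.9 CPM of the cardiomyocyte genes. All 3 E9.5 cells under the limit had Hapln1, and together they held 90.6% of its summed level. In the 39 other E9.5 cells 3 had it and the mean was 7.30 CPM, with 1 set C cell at 267 CPM and the others at 12.0 and 6.03 CPM, the last being the cell at 1564 CPM of the cardiomyocyte genes. The pooled value was at least 183-fold lower at E12.5 than at E9.5 over all kept cells and at least 25.0-fold lower without the cells under the limit, and for P1 against E9.5 the bounds were 24.7-fold and 3.27-fold. The bounds of 25.0-fold and 3.27-fold rest on the cell at 267 CPM, since without it the first was 4.91-fold and the pooled E9.5 value of 0.292 CPM was under the P1 floor of 0.454 CPM. For E12.5 the bound was 77.8-fold within set C, which holds that cell, 4.15-fold within set C without it, and 3.36-fold between the deep sets. Among cells with the muscle genes, Hapln1 was thus a gene of 3 E9.5 cells.

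Fibronectin was likewise highest in the E9.5 cell with endothelial and endocardial markers. Fn1 was found in 31 of 42 E9.5 cells, with a median of 27.9 CPM, a highest cell of 5006 CPM and a mean of 212 CPM, and the 3 cells under the limit held 60.9% of its summed level. At E12.5 17 of 29 cells had it, with a median of 0.195 CPM, a highest cell of 265 CPM and a mean of 35.5 CPM. At P1 2 of 41 cells had it, at 186 CPM and 38.9 CPM, the latter in the endothelial-marker cell. Unlike Hapln1, Fn1 remained common without those cells, in 28 of 39 E9.5 cells with a mean of 89.4 CPM. The E12.5 mean was 5.98-fold lower than that of E9.5 over all kept cells and 2.52-fold lower in cells at 1000 CPM or more.

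Type II collagen, best known from cartilage, was found in most E9.5 cells. Col2a1 had a count in 34 of the 39 E9.5 cells at 1000 CPM or more, 27 of 28 in set N530 and 7 of 11 in set C, and in 0 of the 3 under the limit, which are all of set C. In the 39 cells the median was 121 CPM, the highest cell 3094 CPM and the mean 442 CPM. At E12.5 it was found in 9 of 29 cells, with a median of 0, a highest cell of 194 CPM and a mean of 23.5 CPM. At P1 no count was found in 41 cells, which by the floor of 3 allows up to 7.32% of cells with a count at this depth. The pooled value, which at E9.5 is mostly that of set N530, was at least 1054-fold lower at P1 than at E9.5. In set C, to which all P1 cells belong, the pooled E9.5 value was 51.7 CPM, against 464 CPM over both sets. The bound within set C, against the P1 floor of 0.44 CPM, was therefore smaller. The E12.5 mean was 18.8-fold lower than that of E9.5 in cells at 1000 CPM or more.

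The size of that difference depended on the naming set. At E9.5 Col2a1 averaged 61.6 CPM in the 11 set C cells and 592 CPM in the 28 set N530 cells at 1000 CPM or more, and at E12.5 29.7 CPM in set C and 1.29 CPM in set N523. Within set C the log2 ratio of E12.5 to E9.5 was -1.05, against -8.84 between the deep sets. With all kept cells it was -0.70 within set C, which is under 2-fold.

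Thbs4, a thrombospondin that binds matrix proteins and is known from muscle and tendon, was likewise lower at E12.5 than at E9.5. It was found in 32 of the 39 E9.5 cells at 1000 CPM or more and in 0 of the 3 under it. In the 39 cells the median was 42.8 CPM and the mean 364 CPM. A cell at 5298 CPM held 37.3% of the sum and the next was at 3016 CPM. At E12.5 8 of 29 cells had it, with a highest cell of 47.8 CPM and a mean of 4.34 CPM, and at P1 3 of 41 cells, with a highest cell of 59.98 CPM and a mean of 2.36 CPM. No E12.5 or P1 cell passed 100 CPM, and 13 of the E9.5 cells did.

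The E12.5 mean of Thbs4 was 83.8-fold lower than that of E9.5 in cells at 1000 CPM or more, with a log2 ratio of -3.97 within set C and -8.24 between the deep sets. Without the highest cell of each time point the log2 ratio over all kept cells was -6.28, as with it. From E12.5 to P1 the log2 ratio was -0.88, under 2-fold, but -1.27 within set C and 0.60 against set N523. Of the 39 E9.5 cells at 1000 CPM or more 29 had a count of both Thbs4 and Col2a1, as had 3 of the 29 E12.5 cells. Within the 3 sets with enough cells, Pearson's r of their log2(CPM + 1) ranged from -0.17 to 0.33, which in sparse counts is a description only.

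Sparc, a collagen-binding glycoprotein, was the gene of the 10 found in the largest share of P1 cells. It had a count in 40 of 42, 28 of 29 and 34 of 41 cells, with medians of 377, 607 and 126 CPM and highest cells of 5485, 3582 and 1877 CPM. Sparc did not differ by 2-fold between E12.5 and E9.5 (means 797 CPM and 672 CPM) and fell at P1, to a mean of 263 CPM, 3.03-fold lower than at E12.5. Without the endothelial-marker P1 cell, which held 17.4% of the P1 sum, the fall was 3.58-fold. On the length-scaled TPM Sparc had the highest mean of the 10 genes at each time point, with 620, 622 and 157 TPM in cells at 1000 CPM or more. On the same scale Thbs4 (265), Vcan (228) and Col2a1 (201) came next at E9.5, and Hapln1 (2.93) and Has2 (2.58) were last. This order depended on the naming set. In set C alone Vcan was at 211, Thbs4 at 60.1 and Col2a1 at 23.6 TPM, and Lama4 (1.63) was under Hapln1 (10.2) and Has2 (4.96).

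By the rule used, none of the 3 basement membrane genes was called lower, but Col4a2 was called lower at E12.5 than at E9.5 with pooled CPM, TPM, thinned cells or the deep sets alone. Col4a1, found in 37 of 42, 22 of 29 and 27 of 41 cells, had means of 197, 97.2 and 160 CPM. Its partner chain Col4a2, found in 34 of 42, 15 of 29 and 27 of 41 cells, had means of 198, 31.3 and 118 CPM. Lama4, found in 21 of 42, 19 of 29 and 19 of 41 cells, had means of 80.6, 75.5 and 107 CPM. The shares depended on depth. After thinning to 100000 counts Lama4 was found in 12 of 42, 16 of 29 and 17 of 38 cells and Col4a2 in 25 of 42, 12 of 29 and 26 of 38, so that for both E9.5 passed from above P1 to below it. All ranges overlapped, from 0 in the lowest cell of each time point to at least 393 CPM in the highest.

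By the rule over all naming sets, Col4a2 was the only one of the 10 genes that rose in a comparison. It was 3.77-fold higher at P1 than at E12.5 over all kept cells and 2.57-fold higher in cells at 1000 CPM or more. The endothelial-marker P1 cell held 33.5% of the summed Col4a2 and 34.3% of the summed Col4a1 at P1, at 1619 CPM and 2256 CPM. Without it the P1 means were 80.4 CPM for Col4a2 and 108 CPM for Col4a1. Between E12.5 and E9.5 the mean of Col4a2 was 6.32-fold lower, but 1 of the 4 combinations of sets went the other way (log2 ratio 0.05), so that no change was called.

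The 2 type IV collagen chains assemble together, but they were often not found in the same cell. Both were found in 31 of 42, 14 of 29 and 18 of 41 cells. At P1 9 cells had only Col4a1, 9 had only Col4a2 and 5 had neither. Pearson's r of log2(CPM + 1) in cells at 1000 CPM or more was 0.43 over the 28 cells of set N530, 0.04 over the 20 E12.5 cells of set C and -0.06 over 40 P1 cells, a description of cells that share a set and differ in depth. The highest cell with Col4a1 alone at P1 was at 1241 CPM, far over the 6.71 CPM of 1 count in the median cell. Among the 36 pairs of the 10 genes that could be followed, Col4a1 with Lama4 had r from 0.24 to 0.72 in the 4 sets with enough cells. This pair is named because its mean r, 0.48, was the highest of the pairs followed in more than 1 set. The median r over all pairs of a set ranged from -0.005 to 0.20.

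**Figure D2:**
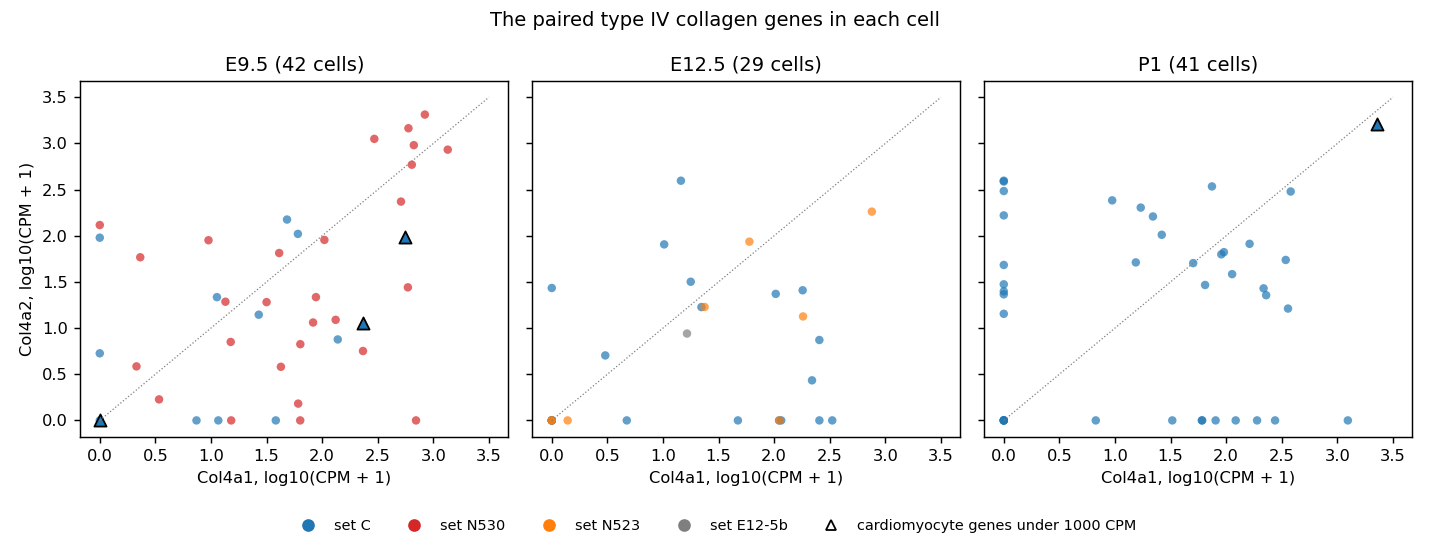
Col4a1 (horizontal) against Col4a2 (vertical) in each cell as log10(CPM + 1), by time point, with colour for the naming set, triangles for cells under 1000 CPM of the cardiomyocyte genes and a dotted line of equal CPM. At P1 18 of 41 cells have both genes, and the cell highest in both is the triangle with endothelial markers.

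**Figure D3:**
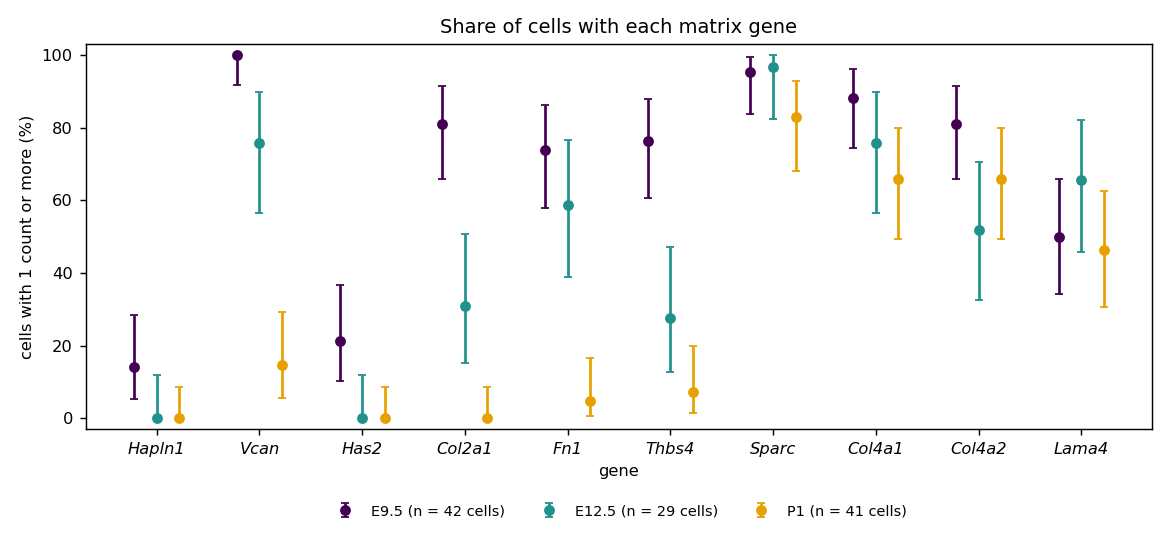
Share of cells with 1 count or more of each gene among 42, 29 and 41 kept cells by time point, with exact 95% binomial intervals, which cover counting error only. The shares are not matched for depth, and cells are not replicates. On these shares the E9.5 and P1 intervals are apart for Vcan, Has2, Col2a1, Fn1 and Thbs4. They overlap for Hapln1, Sparc, Col4a1, Col4a2 and Lama4. With every cell thinned to the same number of counts, Has2 was found in 11.9% of E9.5 cells and 0% of P1 cells. No intervals are given for thinned cells, so a separation of Has2 at equal depth is not shown.

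The 3 comparisons between time points were then set against all genes. The 10 genes were chosen with earlier results of these data known, and the paper names Thbs4 and Col2a1 as expressed only in E9.5 cells. Their counts of calls beside the shares of all genes are therefore a description, not a test. A gene was called where the means differed by 2-fold or more and every combination of naming sets of 6 or more cells went the same way. From E9.5 to E12.5, 6 of the 10 genes fell (Hapln1, Vcan, Has2, Col2a1, Fn1 and Thbs4), where 17.6% of 9579 tested genes were called lower, and 0 rose, where 8.87% were called higher. From E12.5 to P1, 4 fell (Vcan, Col2a1, Fn1 and Sparc), where 23.2% of genes did, and Col4a2 alone rose, where 18.5% did. Between E9.5 and P1, 7 were lower at P1 (the first 6 and Sparc), where 34.8% of genes were, and 0 were higher, where 18.2% were. Any 2 of these comparisons share the cells of 1 time point, so they are not independent of each other.

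The same genes were called in cells at 1000 CPM or more of the cardiomyocyte genes. There 16.1% of genes were lower and 9.07% higher at E12.5 than at E9.5, 24.2% lower and 18.1% higher at P1 than at E12.5, and 33.9% lower and 17.8% higher at P1 than at E9.5. A tested gene had a mean of 5 CPM or more over both time points, and Has2 did not reach it, nor did Hapln1 in cells at 1000 CPM or more. Of the members that did, the calls lower were 5 of 9, 4 of 7 and 6 of 9 over all kept cells, and 4 of 8, 4 of 7 and 5 of 8 in cells at 1000 CPM or more. The median log2 ratio of the 10 genes, with genes at 0 set at their bound, was -2.42 from E9.5 to E12.5 and -2.55 from E9.5 to P1, beside -0.13 and -0.61 over all tested genes. For P1 to E12.5 it was -1.34 over the 8 genes with counts, beside -0.39. The value of -2.55 lies between the bounds of Has2 and Hapln1, which P1 depth sets, so the fall is at least that large. With genes at 0 ranked lowest, the median from E9.5 to P1 was -4.77. CPM are relative, so less RNA of a gene and more RNA of others cannot be told apart.

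**Figure D4:**
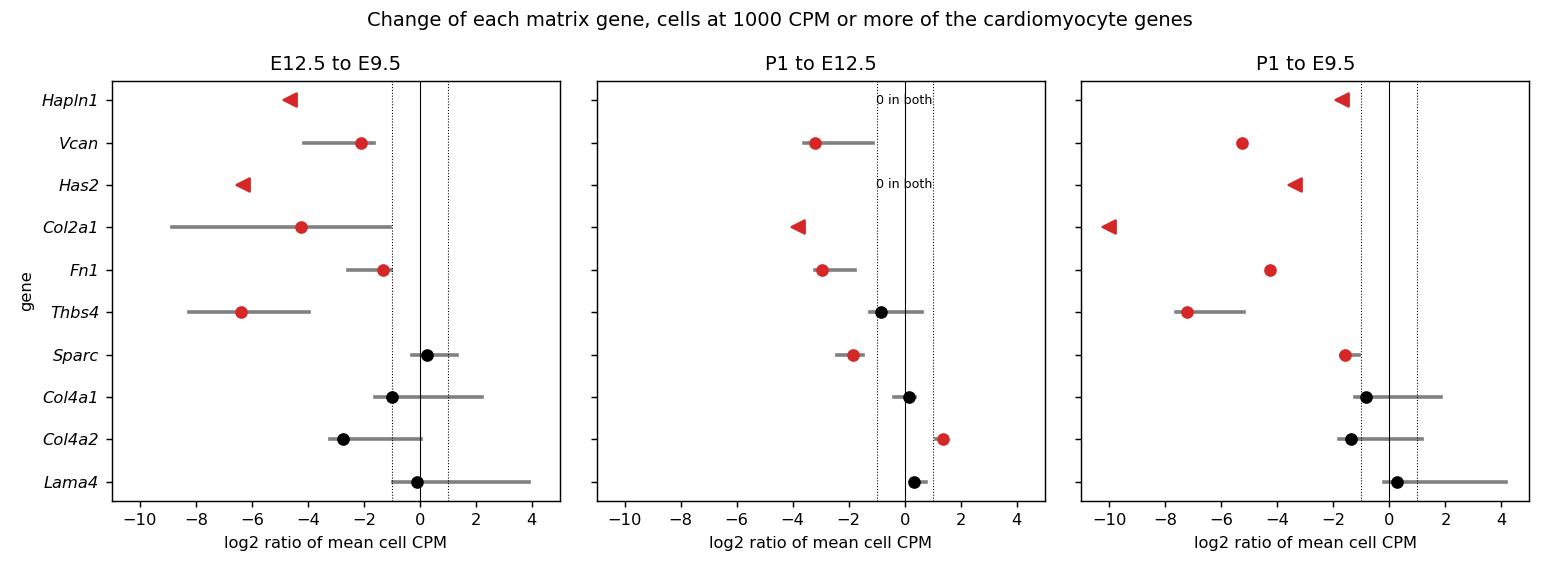
Log2 ratio of mean cell CPM of each gene in the 3 comparisons, in cells at 1000 CPM or more of the cardiomyocyte genes (red points are called, black are not), with a grey bar from the lowest to the highest combination of naming sets and dotted lines at 2-fold. Left-pointing triangles mark upper bounds for genes at 0 in the later time point, and the bars of Col4a1, Col4a2 and Lama4 cross 0 in the 2 comparisons with E9.5.

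The naming sets of E9.5 differed by 2-fold or more for 7 of the 10 genes. In cells at 1000 CPM or more, set N530 was at least 2-fold higher than set C for 5 of the 10 genes, where 31.2% of genes were, and lower for 2, where 25.1% were. The higher genes were Lama4 (109 against 5.34 CPM, 20.5-fold), Col2a1 (9.61-fold), Col4a1 (256 against 30.4 CPM, 8.41-fold), Col4a2 (279 against 35.5 CPM, 7.85-fold) and Thbs4 (472 against 89.1 CPM, 5.30-fold). The lower genes were Hapln1 (0.215 against 25.3 CPM, with counts in 1 and 2 cells), the largest ratio of the 10, and Has2 (3.25 against 9.77 CPM). Vcan (1.02-fold) and Fn1 (0.945-fold) were near equality and Sparc was 1.58-fold higher. Whether the sets are different chips, litters or regions of the heart is not given in the sources used here, and set and depth cannot be told apart at E9.5.

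Within set C, which spans all 3 time points, the basement membrane genes were at their lowest at E9.5 or E12.5. In cells at 1000 CPM or more, Col4a1 averaged 30.4, 83.8 and 108 CPM, and Lama4 averaged 5.34, 79.4 and 95.4 CPM. Col4a2 averaged 35.5, 30.2 and 80.4 CPM. Between the deep sets the same genes were lower at E12.5, with log2 ratios of -0.86 for Col4a1, -2.92 for Col4a2 and -0.97 for Lama4. Vcan, Fn1, Col2a1 and Thbs4 were lower at E12.5 than at E9.5 in both.

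**Figure D5:**
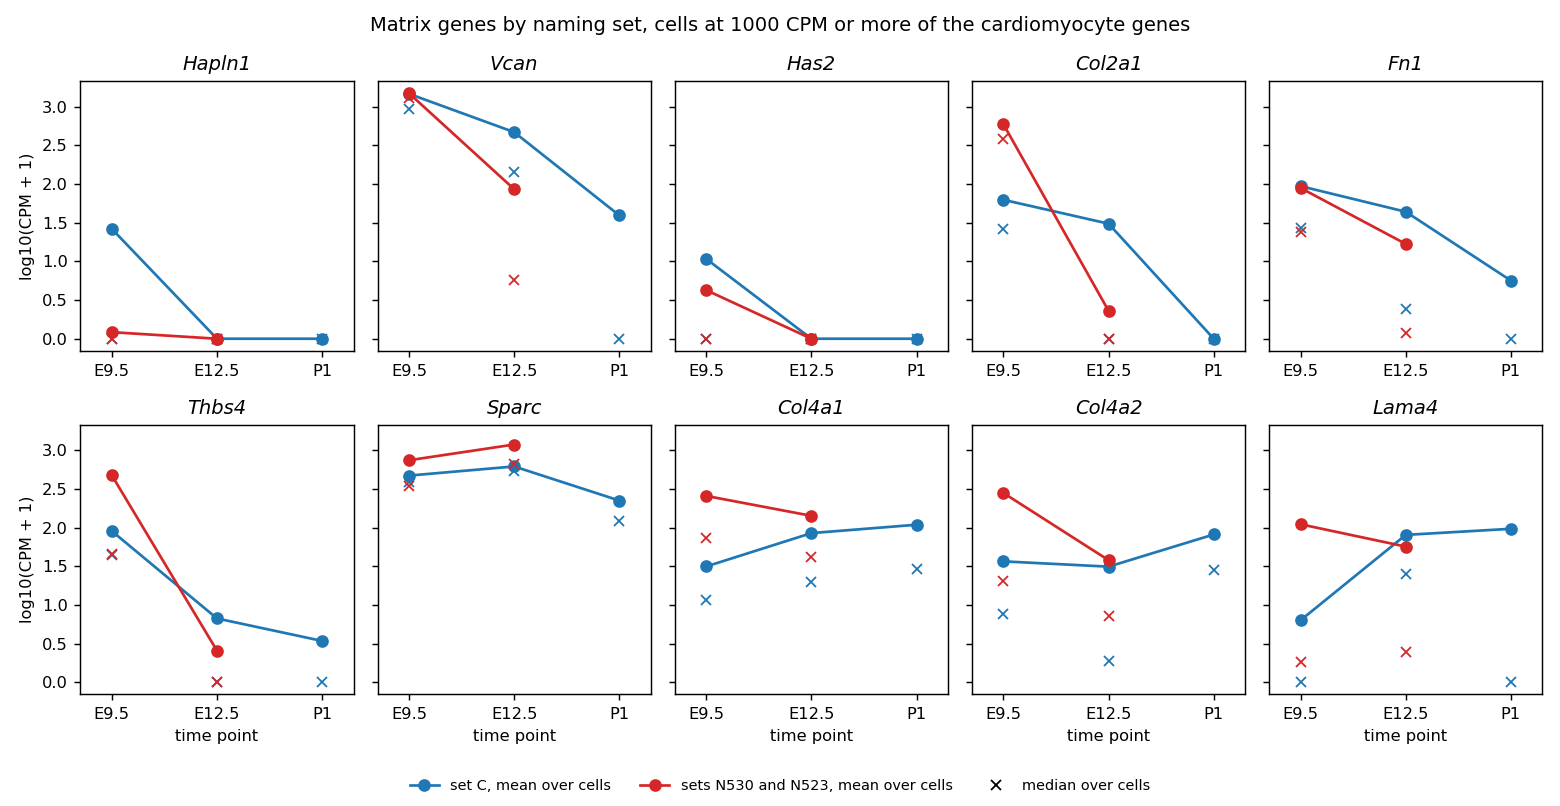
Mean (circles, joined) and median (crosses) level of each gene as log10(CPM + 1) in cells at 1000 CPM or more of the cardiomyocyte genes, by time point, for set C (blue) and for sets N530 at E9.5 and N523 at E12.5 (red). The blue and red lines fall together for Vcan, Fn1, Col2a1 and Thbs4 and run in opposite directions from E9.5 to E12.5 for Col4a1 and Lama4.

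Other genes of the same matrix were described by lists that left out the 10, in cells at 1000 CPM or more, where 16.1% of all tested genes fell and 9.07% rose from E9.5 to E12.5 and 24.2% fell and 18.1% rose from E12.5 to P1. The 4 cells under the limit moved some of the counts, and where they did the counts over all kept cells are given too. Of 10 further fibrillar collagens 4 reached the mean of 5 CPM for the first step and 1 fell, Col5a2, from 20.8 to 1.39 CPM, against 3 of 5 over all kept cells (Col3a1, Col5a1 and Col5a2). The median log2 ratio of the 4 was -4.24, and Col5a1, which lost its call without the 4 cells, was at 45.3 and 0.930 CPM there, with a log2 ratio of -5.61 against -5.79 with them. Of 22 enzymes and chaperones of collagen synthesis 13 reached it, 3 fell and 0 rose, and over all kept cells 2 of 13 fell. P4hb, a subunit of prolyl hydroxylase, fell from 420 to 196 CPM, and the collagen chaperone Serpinh1 had means of 122, 65.6 and 25.9 CPM, lower at P1 than at either earlier time point. Every one of the 39 E9.5 cells had a count of P4hb and of Serpinh1.

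Of 20 further basement membrane genes, 15 were tested for E12.5 against E9.5, 2 fell (Lamb2 and Nid2) and 0 rose, with a median log2 ratio of -0.36, and over all kept cells 4 of 15 fell. For P1 against E12.5 4 of 14 fell and 2 rose (4 and 3 of 15 over all kept cells), with a median of -0.34, shares near those of all genes. Nid2, which links laminin to type IV collagen, had means of 211, 72.3 and 24.5 CPM and fell in both steps. The laminin beta and gamma chains Lamb1 (217, 87.1 and 71.9 CPM) and Lamc1 (116, 91.6 and 123 CPM), which pair with Lama4, were not called in any comparison.

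Of 25 matricellular genes, 8 were tested for E12.5 against E9.5, and 1 fell, Spon1, from 557 to 205 CPM, against 3 of 9 over all kept cells (Thbs1, Tnc and Spon1). At P1 4 of 6 were lower than at E12.5, among them Fstl1, a secreted relative of Sparc, with means of 1706, 3015 and 381 CPM, and Cyr61, a growth factor-induced matrix protein, with 245, 157 and 20.5 CPM. Of 23 other genes of hyaluronan and proteoglycans, 6 were tested and 0 were called between E12.5 and E9.5, while 3 of 6 fell (Hyal2, Hmmr and Adamts1) and 1 rose (Adamts9) from E12.5 to P1, against 3 and 2 of 7 over all kept cells, with Hyal1 also higher. The hyaluronan receptor Cd44 had means of 102.7, 84.7 and 53.6 CPM and was not called, and Adamts1, a protease that cuts versican, had means of 47.2, 155 and 12.2 CPM, lower at P1 than at either earlier time point.

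Among matrix proteases and their inhibitors more genes rose than fell in the first step. Of 10 tested for E12.5 against E9.5, 5 rose and 1 fell, with a median log2 ratio of 1.17, where 9.07% of all genes rose and 16.1% fell, and over all kept cells 4 of 11 rose and 1 fell. The inhibitors Timp3 (106, 314 and 143 CPM) and Serpine2 (97.7, 250 and 39.7 CPM) rose from E9.5 to E12.5 and fell by P1. Of 25 matrix receptors 15 were tested in the first comparison, 3 fell and 0 rose, with a median of -0.47 (4 of 16 and 0 over all kept cells). The integrin beta chain Itgb1, a receptor for fibronectin, collagens and laminins, was found in 89.7% of E9.5, 96.6% of E12.5 and 80.0% of P1 cells, with means of 340, 245 and 254 CPM, and was not called. For elastic fibre genes 1 of 7 fell (Efemp2) and 1 rose (Mfap2) between E9.5 and E12.5 (over all kept cells 2 of 9 and 0), and 2 of 8 fell and 0 rose by P1. Over all kept cells 2 of 10 fell and 2 rose by P1 (Fbln2 and Mfap5). One of the genes that fell was Fbn2, a fibrillin, with means of 325, 251 and 70.3 CPM.

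The genes whose level followed that of the 10 most closely across cells were sought within naming sets of 10 or more cells, and are named only where the mean Pearson's r was 0.5 or more. For Fn1, over 3 sets and 5164 candidate genes, these were Alpk2, Dzip1l and Zc3h11a, each with a mean r of 0.51. For Has2, over the 28 cells of set N530 alone, Itfg2 had r of 0.76 and Gm10548 r of 0.74, and 1 more symbol stood in the table as a calendar date. These are the highest values among 5164 and 7216 candidates in sparse counts, and are descriptions. No gene reached 0.5 with Vcan, Col2a1, Thbs4, Sparc, Col4a1, Col4a2 or Lama4, and Hapln1 was in too few cells.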

How the data were processed

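GFP+ cells of αMHC-GFP hearts were amplified on C1 chips with a SMART-Seq kit and prepared with Nextera XT, which does not mark strand. The authors mapped reads with OLego (the submitters' processing notes name GRCm38) and deposited read counts per gene symbol from featureCounts, and TPM that they computed from these counts on a linear scale. The gene lengths behind the TPM are not given in the sources used here.

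From the deposited counts, CPM were computed per cell and averaged over cells. Cells with fewer than 2000 genes (11, all P1) were left out, and totals of the kept cells ranged from 69522 to 7711355 counts. Cells under 1000 CPM of Ttn, Actc1, Myh6 and Tnnt2 were kept, and each result was repeated without them. A gene at 0 was set against a floor of 3 counts over the pooled cells. Shares carry exact (Clopper-Pearson) 95% binomial intervals. Both cover counting error only, since PCR copies were not told apart by molecular identifiers. No doublet caller was run, and each capture site was taken as 1 cell. With 1 sample per time point no test was run.

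The 10 genes, the other gene lists and the rules were chosen with earlier results of these data known. Of each other matrix list the 3 genes with the highest mean over time points were named where they bear on the text, and the other genes of these lists and the markers of single cells were named after their values were seen. Each result was recomputed with a minimum of 1000 or 3000 genes per cell, with genes called found at 2 or 10 counts, with pooled CPM, deposited TPM, TMM factors (edgeR 4.0.16), thinned cells, single naming sets and a 4-fold limit, without the highest cell, and without the cells whose titles end in "no", which no label explains. After seeing the data, the bounds of Hapln1 and Has2 were also computed without the highest cell and within sets. Python 3.11.15 with scipy 1.17.1 was used, and the scripts were tested on simulated data.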

Additional observations from a re-analysis of the deposited data

Results flagged for a closer look

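The log2 ratio of E12.5 to E9.5 differed in sign between naming sets for 2 of the 10 genes, over all kept cells. For Col4a1 it was 0.068 within set C and -0.86 between sets N523 and N530, and for Lama4 it was 1.78 within set C and -0.97 between sets N523 and N530. In set C cells at 1000 CPM or more, that is without 3 E9.5 cells, the ratios were 1.46 for Col4a1 and 3.90 for Lama4. The difference was not tested, because no animal is named for any cell and cells are not replicates.

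The 11 P1 cells with fewer than 2000 genes, which entered no comparison of the report, and of which those with 1000 genes or more entered the alternative with that minimum, held counts of 4 of the genes above the limit that a count of 0 allows. They held 84 counts of Vcan in 1 cell, 215 of Sparc in 6 cells, 123 of Col4a1 in 5 cells and 91 of Col4a2 in 5 cells.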

How the results depend on the processing

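Over all kept cells the summed level of the 10 genes had a log2 ratio of -1.36 from E9.5 to E12.5 and of -1.01 from there to P1, while P1 against E9.5 gave -2.37, and none of these changed sign. The first became -0.93 with TMM factors. The second became -1.36 without cells under 1000 CPM of the cardiomyocyte genes, -1.25 with pooled CPM, -1.24 with TPM, -1.27 with TMM factors, -1.15 with a minimum of 3000 genes, -1.29 without titles ending in "no" and -1.20 without the highest cell. The third became -2.74 without titles ending in "no". With set C alone, 1 gene (Lama4) was higher at E12.5 than at E9.5 and 3 (Col4a1, Col4a2 and Lama4) at P1 than at E9.5. With a 4-fold limit 0 genes were higher at P1 than at E12.5. Of 72 recomputed counts of genes, 69 stayed within 1.5 times, but the genes behind them changed. From E9.5 to E12.5 Col2a1 was no longer called within set C (log2 ratio -0.70) or without titles ending in "no", where the ratio was -4.16 and only a combination of sets turned, and Col4a2 was called lower with pooled CPM, TPM, thinned cells or the deep sets. From E12.5 to P1 Vcan was not called against set N523, and Thbs4 was called lower within set C and without the highest cell. From E9.5 to P1 Col4a1 was called lower with a minimum of 3000 genes and Col4a2 with set N530. Of 120 recomputed shares of cells, 18 moved beyond their interval. Of 242 recomputed ratios of single genes, 12 changed sign, in 8 of 22 ratios, none of them called. TMM factors moved all log2 ratios by 0.43, -0.26 and 0.17, and with them 45.2% of the called genes were lower at E12.5 than at E9.5, against 66.5% without, while the counts for the 10 genes stayed at 6 lower and 0 higher. Single cells and depth limit Hapln1, Has2 and the P1 values of Vcan, Fn1 and Thbs4. No paired analysis was possible because each time point is 1 sample and its cells share no animal with another.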
